A study of Mus musculus with 8 samples.

Results

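The genes of arginase and polyamine metabolism described here are Arg1, Arg2, Odc1, Amd1, Srm, Sms, Sat1, Oaz1, Oaz2 and Azin1, 10 of the 49315 genes in the count files. They were chosen by name as the arginases, the enzymes of polyamine synthesis and acetylation, and the regulators of ornithine decarboxylase, after Arg1 had been seen among the genes with the lowest values in knockout relative to wild-type libraries. Their differences between the genotypes are therefore given as a description, with no test. All 10 were found by symbol, and all 10 passed the filter on low counts. RNA was sequenced from epidermis isolated from back skin of mice aged 22 months, in 3 wild-type libraries (WT) and 5 libraries with the genotype Tgfa KO, with keratinocytes given as the cell type. No treatment or further allele is named for either group, and neither the strain nor how the Tgfa allele was made is given in the labels. The product of Tgfa, transforming growth factor alpha, activates the epidermal growth factor (EGF) receptor, and the series is titled for hair follicles in aging and hair loss.

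Arginase splits arginine into urea and ornithine, and ornithine decarboxylase turns ornithine into putrescine, the first polyamine and a step that limits the rate of the pathway. Spermidine synthase and spermine synthase extend putrescine with groups supplied by S-adenosylmethionine decarboxylase, and spermidine/spermine N1-acetyltransferase marks polyamines for export or oxidation. Antizymes bind ornithine decarboxylase and send it to the proteasome when polyamines are abundant, and antizyme inhibitor, a relative of the decarboxylase without its activity, releases it again. In skin, ornithine decarboxylase is known for its high activity in growing hair follicles and its induction in stimulated keratinocytes.

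Antizyme genes carry a sequence that shows how polyamines feed back on their own synthesis. Translation of antizyme meets an early stop codon, and polyamines promote a shift of the ribosome by 1 base that passes it. The windows around this site in the antizyme members were read from mouse transcripts of GENCODE M21 on GRCm38, and are shown because the site defines the family. Capitals mark the last codon before the shift, TCC, and the stop codon, TGA. Of the 30 bases, 28 were identical between the genes. The base skipped in the annotated coding sequence is at position 80828295 of chromosome 10 for Oaz1 and at position 65686272 of chromosome 9 for Oaz2. The counts are per gene and do not measure the shift.
Oaz1, chr10:80828280-80828309, plus strand: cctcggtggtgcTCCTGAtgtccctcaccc
Oaz2, chr9:65686257-65686286, plus strand: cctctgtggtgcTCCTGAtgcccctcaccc

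The libraries differed in depth and quality, and 3 of them stood apart. Total counts ran from 12968728 to 18292303 in 7 libraries and were 5313552 in KO replicate 2. WT replicate 3 and the library labelled KO replicate 1 had 6.61% and 4.88% of their counts on Malat1, a nuclear noncoding RNA, against 1.34% to 1.84% elsewhere. KO replicate 2 had 3724.82 CPM (counts per library, scaled to a common total) on olfactory and vomeronasal receptor genes, which are active in the nose, and 6.33 counts per kb on 15618 autosomal genes that had no count in the 5 libraries lowest in receptor counts. To a lesser degree this held for WT replicates 3 and 2, at 613.48 and 266.83 CPM and 2.33 and 1.12 counts per kb. Receptor genes were at 34.33 to 64.59 CPM in the 5 lowest libraries. Tgfa, the targeted gene, was 85.07 to 111.69 CPM in WT and 34.39 to 70.15 in KO replicates 2 to 5. In the library labelled KO replicate 1 it was 131.71, above all WT libraries. Every KO library held Tgfa counts, from 198 to 1787, and how the allele was made is not given. The Tgfa level therefore does not settle the genotype of the library labelled KO replicate 1. Directions for KO below include that library, and its genotype remains uncertain. The names of WT libraries and of KO replicates 1 and 2 share the ending br, those of KO replicates 3 to 5 the ending bl, and neither ending is explained. All 3 libraries that stood apart end in br, and they include both KO libraries with that ending. Values below among br libraries, or with the ending as a covariate, therefore rest largely on them. Krt14, a keratin of basal keratinocytes, and Krt1 and Krt10, of the layers above, were at least 397.84 CPM in every library. They were not level: WT replicate 3 had the lowest Krt1, at 397.84 CPM against 1547.24 to 4859.31 elsewhere. It also had the lowest Krt14, at 662.41 CPM against 1451.20 to 3426.20, while Krt10 was lowest in KO replicate 2. Whether each library is a separate mouse is not stated, and p-values therefore reflect only the spread between these samples, which may be technical.

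Of the 10 genes, Arg1 had the lowest value in KO relative to WT, followed by Odc1 and Amd1. Arg2 and Srm had positive values, and those of Sms, Sat1 and Oaz1 were within 0.11 of 0 on the log2 scale. With the quasi-likelihood test of edgeR over all 19239 genes tested, 0 of the 10 were called at an adjusted p under 0.05, where 0.00520% of all genes were called higher and 0% lower. Over the 10 genes 2 log2 fold changes were positive and the median was -0.25, and over all genes tested 61.89% were positive and the median was 0.16. WT and KO levels did not overlap for 2 of the 10, Arg1 and Amd1, both lower in KO, and 1.75% of all genes tested had no overlap with KO lower and 3.40% with KO higher. Since these values chose the genes, nothing further is read from these counts. A level here is in CPM after TMM scaling, in which libraries are brought to a common composition, and a difference is a log2 fold change, KO minus WT, with its standard error (SE). In bulk tissue, fewer cells of a type and less RNA per cell cannot be told apart.

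**Figure D1:**
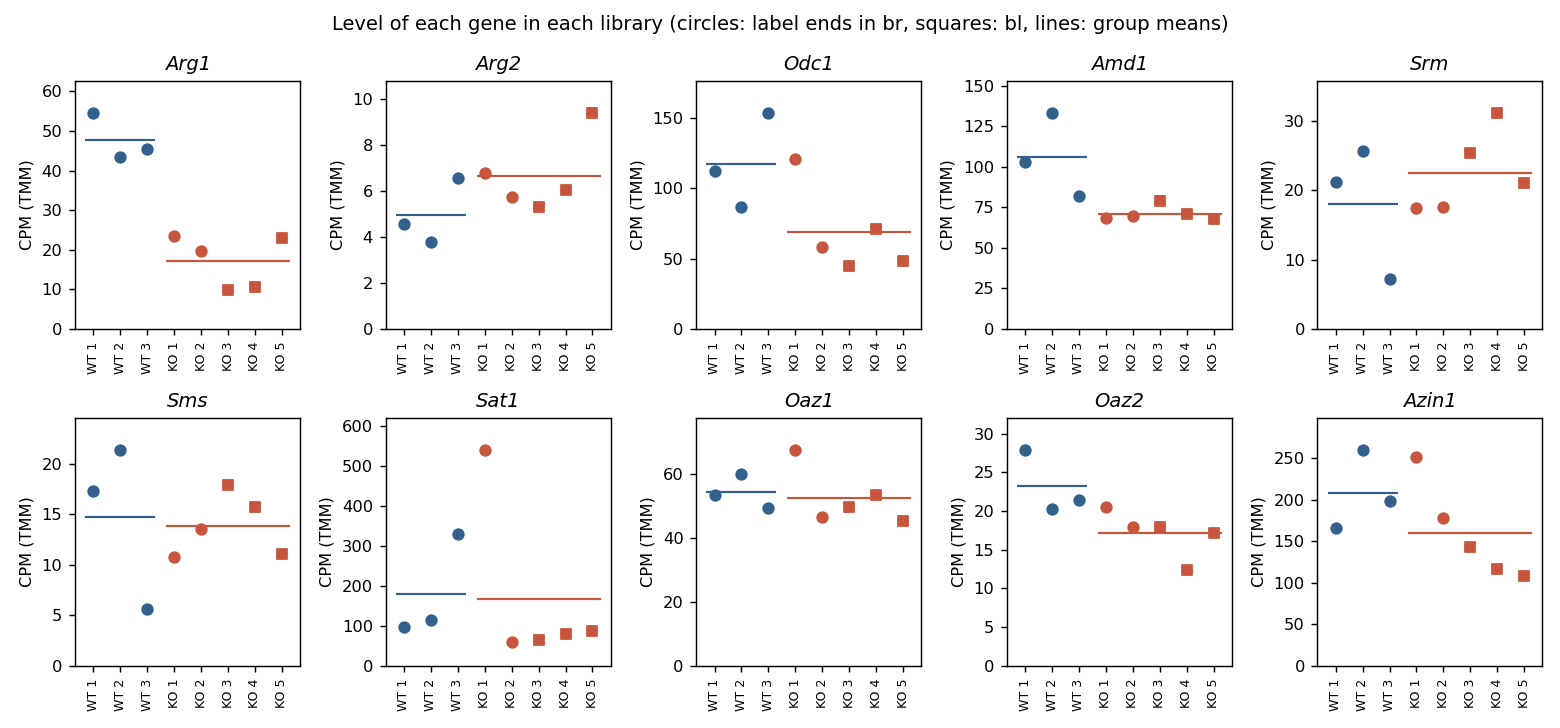
Level of each of the 10 genes in CPM (vertical axes, from 0) in the 3 WT (blue) and 5 KO (red) libraries, with circles for library names ending in br, squares for bl and lines for group means. Arg1 and Amd1 are the panels in which every KO point lies below every WT point, and Sat1 is high in WT replicate 3 and the library labelled KO replicate 1.

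Arg1 (ENSMUSG00000019987, GRCm38 chromosome 10, 24915208 to 24927470, minus strand) encodes the cytosolic arginase, best known from the urea cycle of the liver and from alternatively activated macrophages. It was 54.46, 43.39 and 45.41 CPM in WT replicates 1 to 3, and 23.36, 19.62, 9.75, 10.67 and 22.90 CPM in KO replicates 1 to 5, from 973, 656 and 581 counts in WT and 317, 113, 156, 187 and 329 in KO. All 5 KO libraries, including the library labelled KO replicate 1, lay below all 3 WT libraries, and KO replicates 3 and 4 were the lowest. The WT mean was 47.8 ± 5.90 CPM (SD, n = 3) and the KO mean 17.3 ± 6.60 (n = 5). The log2 fold change was -1.47 (SE 0.32), and 1.68% of all genes tested had a value of -1 or below. It was -1.21 among libraries ending in br alone, -1.15 with the ending as a covariate and -1.78 for KO libraries ending in bl against WT, and with each library left out in turn it ran from -1.75 to -1.32.

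Arg1 had the same sign in all 21 alternative settings. Its value was -1.50 in DESeq2, -1.85 in limma voom with libraries weighted by quality, and -1.79 in edgeR with the 3 libraries that stood apart left out. In the last of these the remaining KO libraries have the ending bl and the WT libraries br, so genotype and ending cannot be told apart there. Background counts of the kind seen on silent genes came to 9.3 of the 113 counts of Arg1 in KO replicate 2. With such counts subtracted in WT replicates 2 and 3 and KO replicate 2, the log2 fold change was -1.43. In the other libraries the background was 0 by the definition of the silent genes.

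Arg2 (chromosome 12, 79130777 to 79156301, plus strand) encodes the mitochondrial arginase. Its coding sequence was 71.9% identical to that of Arg1 over 930 aligned bases. It was 4.59, 3.77 and 6.57 CPM in WT, and 6.78, 5.73, 5.31, 6.05 and 9.39 CPM in KO replicates 1 to 5. WT replicate 3 lay inside the KO range and WT replicates 1 and 2 below it, and the log2 fold change was 0.42 (SE 0.33). Without WT replicate 2 it was -0.02. Counts of Arg2 were 33 to 135, the fewest of the 10 genes, and 27.4% of its 33 counts in KO replicate 2 were at the level of that library's background.

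Arg2 overlaps Vti1b, a gene on the opposite strand, by up to 417 exonic bases. Vti1b was the more abundant, and since strand was not stated for the counting, reads of the shared bases cannot be told apart. Per length, in TPM (counts per kb of exon, scaled to the same sum in each library), Arg1 made up 91.99%, 91.76% and 87.00% of the arginase total in WT and 76.92%, 76.81%, 63.97%, 63.06% and 70.22% in KO replicates 1 to 5. Arg1 was thus the larger of the pair in every library, and no KO library reached the share of any WT library, which follows in part from the Arg1 levels that chose these genes.

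Odc1 (chromosome 12, 17544873 to 17551502, plus strand), the ornithine decarboxylase gene, was 112.34, 86.72 and 153.35 CPM in WT and 120.80, 58.01, 45.08, 71.09 and 48.44 CPM in KO replicates 1 to 5. KO replicates 2 to 5 lay below all WT libraries, and the library labelled KO replicate 1 lay between WT replicates 1 and 3, so the groups overlapped through that library alone. The WT mean was 117.5 ± 33.6 CPM (SD, n = 3) and the KO mean 68.7 ± 30.8 (n = 5), and the log2 fold change was -0.77 (SE 0.35). It was -0.40 among libraries ending in br, -0.39 with the ending as a covariate and -1.16 for KO libraries ending in bl against WT.

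The size of the Odc1 difference moved with single libraries while its sign was the same in all 21 settings. It was -1.21 without WT replicate 2, -1.08 without the library labelled KO replicate 1 and -0.54 without WT replicate 3. Gm17709, a processed pseudogene of Odc1 with 97.759% identity over 937 bases, held up to 230 counts in a library, at most 20.25% of the Odc1 count, and reads of near-identical copies may have been split between them.

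Amd1 (chromosome 10, 40287458 to 40302186, minus strand) encodes S-adenosylmethionine decarboxylase, which supplies the groups that lengthen polyamines. It was 103.16, 133.03 and 82.23 CPM in WT and 68.40, 69.64, 78.97, 70.86 and 67.99 CPM in KO replicates 1 to 5. Every KO library lay below every WT library, with KO replicate 3 at 78.97 CPM closest to WT replicate 3 at 82.23. The KO libraries were close together, at 71.2 ± 4.50 CPM (SD, n = 5), and the WT libraries were wider apart, at 106.1 ± 25.5 (n = 3).

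The log2 fold change of Amd1 was -0.58 (SE 0.21), and it kept to -0.74 to -0.54 over the 21 settings, the narrowest range among Arg1, Odc1 and Amd1. It was -0.70 among libraries ending in br. Amd2 has a coding sequence identical to that of Amd1 in 1001 of 1002 bases and held at most 16 counts, up to 3.99% of the Amd1 count, so the Amd1 level may hold reads of Amd2.

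The promoters of Odc1 and Amd1 are shown because these genes had the lowest log2 fold changes after Arg1. They come from RefSeq, on GRCm38.p6. Promoter entries matched 6 of the 10 genes (7 entries, 2 of them of Sms). The 250 bases before each start are given, with capitals for the GC box motif GGGCGG on either strand. Both are richer in G and C than the median promoter (52.4%), at 80.0% for Odc1 and 64.4% for Amd1.
Odc1, chr12:17544623-17544872, plus strand: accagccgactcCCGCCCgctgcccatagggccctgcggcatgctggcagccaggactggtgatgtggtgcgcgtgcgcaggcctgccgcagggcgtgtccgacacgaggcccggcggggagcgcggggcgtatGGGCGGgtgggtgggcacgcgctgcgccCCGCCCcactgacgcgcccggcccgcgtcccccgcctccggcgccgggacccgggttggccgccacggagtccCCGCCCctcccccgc
Amd1, chr10:40302189-40302438, minus strand: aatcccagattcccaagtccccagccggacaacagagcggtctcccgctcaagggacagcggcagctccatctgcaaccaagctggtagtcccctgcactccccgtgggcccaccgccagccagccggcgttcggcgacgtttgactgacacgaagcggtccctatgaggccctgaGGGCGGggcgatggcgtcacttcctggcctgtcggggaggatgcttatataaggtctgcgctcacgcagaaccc

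Odc1 held 4 GC boxes in its window and Amd1 held 1. Over windows of 300 bases, 250 before and 50 after the start, searched on both strands, GGGCGG was found in 5 of the 7 member entries and in 35.7% of all 32851 entries. The E-box CACGTG was in 1 entry (Sms) and in 7.2% of all, and CCAAT was in 2 entries and in 37.4% of all. TATAAA was in 1 entry (Oaz1, at offset -3, across the start) and in 13.6% of all. The AP-1 motif TGANTCA and the CRE motif TGACGTCA were in 0 of the 7, against 7.8% and 1.8% of all. No motif of the 6 contains another, and a match describes letters in the window only.

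Srm (chromosome 4, 148591503 to 148594993, plus strand) and Sms (chromosome X, 157443855 to 157492287, minus strand) encode the synthases of spermidine and spermine. Srm was 21.27, 25.60 and 7.19 CPM in WT and 17.47 to 31.10 in KO, with a median of 21.02 there, and its log2 fold change was 0.32 (SE 0.39). Sms was 17.30, 21.37 and 5.63 CPM in WT and 10.76 to 17.94 in KO, and its log2 fold change was -0.10 (SE 0.39). For both genes WT replicate 3, a library with a high Malat1 share, was the lowest of all 8, and the groups overlapped.

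Neither synthase kept its sign in every setting. Without WT replicate 3, Srm was -0.06 and Sms was -0.49, and without WT replicate 2, Sms was 0.11. Srm was -0.13 among libraries ending in br. The exons of Sms are the longest after those of Azin1 among the 10 genes, and 48.8% of its 78 counts in KO replicate 2 and 19.4% of its 72 counts in WT replicate 3 were at the background level of those libraries, so its values there are the least certain. Per length, Sms was 0.1342 to 0.2221 of Srm in every library.

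Sat1 (chromosome X, 155213132 to 155216449, minus strand) encodes the acetyltransferase that starts polyamine breakdown and export. It was 95.88, 113.71 and 330.15 CPM in WT and 540.24, 59.05, 63.65, 79.65 and 87.62 CPM in KO replicates 1 to 5. WT replicate 3 and the library labelled KO replicate 1 were far above the rest of their groups, and the other 4 KO libraries lay below the other WT libraries. Its log2 fold change of -0.11 (SE 0.79) had the widest error of the 10 genes. It was -1.32 without the library labelled KO replicate 1, 0.66 without WT replicate 3 and 0.80 among libraries ending in br, and 14 of 21 settings kept its sign.

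Smox, which encodes spermine oxidase, was high in the same libraries as Sat1. It was 42.93, 40.55 and 223.15 CPM in WT and 440.00, 38.73, 40.02, 46.04 and 42.59 CPM in KO replicates 1 to 5. Its log2 fold change of 0.25 was -1.29 without the library labelled KO replicate 1 and 1.54 without WT replicate 3. These are the libraries with a Malat1 share of 6.61% and 4.88%. The 9 macrophage markers also summed highest there, at 99.50 and 118.88 CPM against 21.16 to 77.98 elsewhere. Of these sums Cd68, a lysosomal gene, made 55.57 and 72.38 CPM. Adgre1 was also highest in these libraries, at 13.68 and 10.76 CPM against 2.92 to 10.25 elsewhere. Other macrophage markers did not follow, and the order of the sums rests on Cd68. Csf1r was highest in KO replicate 4, at 31.84 CPM against 21.03 and 27.05 in these libraries. Mrc1, Fcgr1 and C1qc were highest in KO replicate 2, and C1qa and C1qb in WT replicate 3. Cd163, a marker at a low level, was lowest in WT replicate 3 and the library labelled KO replicate 1, at 0.78 and 0.59 CPM. Mxd1, of the Myc network, was also high there, at 654.28 and 713.66 CPM against 89.41 to 240.41 elsewhere. Keratinocyte genes differed in these libraries as well. Of the hair follicle markers, Krt17 was highest there, at 1169.68 and 1235.83 CPM against 315.6 to 421.54 elsewhere. Krt15 was lowest there, at 246.83 and 271 CPM against 471.8 to 1080.47, and Krt75, Lgr5, Cd34 and Sox9 followed neither order. Of the granular markers, Lor and Lce1a1 were highest there, while Flg, Flg2, Ivl, Casp14 and Hrnr were not highest in both. The part of library quality, of keratinocyte state or of other cells in the Sat1 values was not tested. Odc1 per Sat1 in TPM, synthesis against acetylation, was lowest in the library labelled KO replicate 1 (0.2435), followed by WT replicate 3 (0.5059), and 0.6021 to 1.276 elsewhere.

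**Figure D2:**
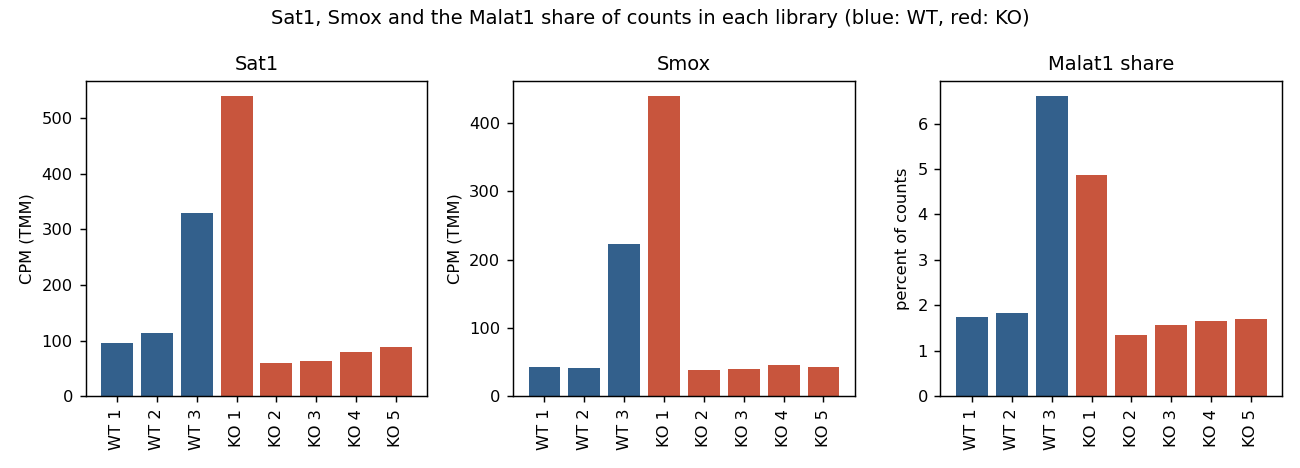
Sat1 and Smox levels in CPM and the Malat1 share in percent of counts (vertical axes, from 0) for each of the 3 WT (blue) and 5 KO (red) libraries. WT replicate 3 and the library labelled KO replicate 1 have the tallest bars in each panel, at 330.15 and 540.24 CPM for Sat1.

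Of the antizyme genes, Oaz1 was nearly level between the genotypes and Oaz2 had lower values in most KO libraries. Oaz1 (chromosome 10, 80826656 to 80829290, plus strand) was 49.40 to 59.80 CPM in WT and 45.30 to 67.36 in KO, with means of 54.1 ± 5.27 (SD, n = 3) and 52.4 ± 8.92 (n = 5) and a log2 fold change of -0.05 (SE 0.20, 95% interval -0.50 to 0.41). The groups overlapped, and the library labelled KO replicate 1 was the highest. Oaz2 (chromosome 9, 65668001 to 65690300, plus strand) was 27.88, 20.31 and 21.42 CPM in WT and 20.49, 17.89, 17.94, 12.38 and 17.19 CPM in KO replicates 1 to 5, a log2 fold change of -0.43 (SE 0.23). For Oaz2 the library labelled KO replicate 1 lay just above WT replicate 2, and the other 4 KO libraries lay below all WT libraries.

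Oaz2 had the same sign in 21 of 21 settings, from -0.74 without WT replicate 2 to -0.25 without WT replicate 1. Its part of the antizyme total in TPM was 16.60% to 30.96% over the 8 libraries, so Oaz1 was the larger of the pair throughout. Oaz1 and Oaz2 coding sequences were 74.0% identical over 546 aligned bases.

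Azin1 (chromosome 15, 38487430 to 38519266, minus strand) encodes antizyme inhibitor, whose coding sequence was 69.2% identical to that of Odc1 over 1285 aligned bases. It was 166.13, 259.90 and 197.90 CPM in WT and 251.18, 177.84, 143.12, 116.62 and 107.94 CPM in KO replicates 1 to 5. KO replicates 3 to 5, whose names end in bl, lay below all WT libraries, and the KO libraries ending in br lay inside the WT range. The log2 fold change was -0.38 (SE 0.31) over all libraries. It was 0.00 among libraries ending in br, 0.05 with the ending as a covariate and -0.82 for KO libraries ending in bl against WT. The difference was thus not seen within the shared ending, where both KO libraries are among those that stood apart. The ending and the state of those libraries cannot be told apart here.

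The antizymes and the inhibitor can be set against their target. Oaz1 plus Oaz2 per Odc1, in TPM, was 0.6827, 0.8861 and 0.4397 in WT and 0.6997, 1.059, 1.437, 0.8939 and 1.234 in KO replicates 1 to 5. The library labelled KO replicate 1 lay within the WT range and the other 4 KO libraries above it, KO replicate 4 only just. This order follows in part from the Odc1 levels given above. Azin1 per Odc1 was 0.5275 to 1.225 in WT and 0.6706 to 1.298 in KO, and the groups overlapped. These are ratios of transcript levels and say nothing of protein.

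**Figure D3:**
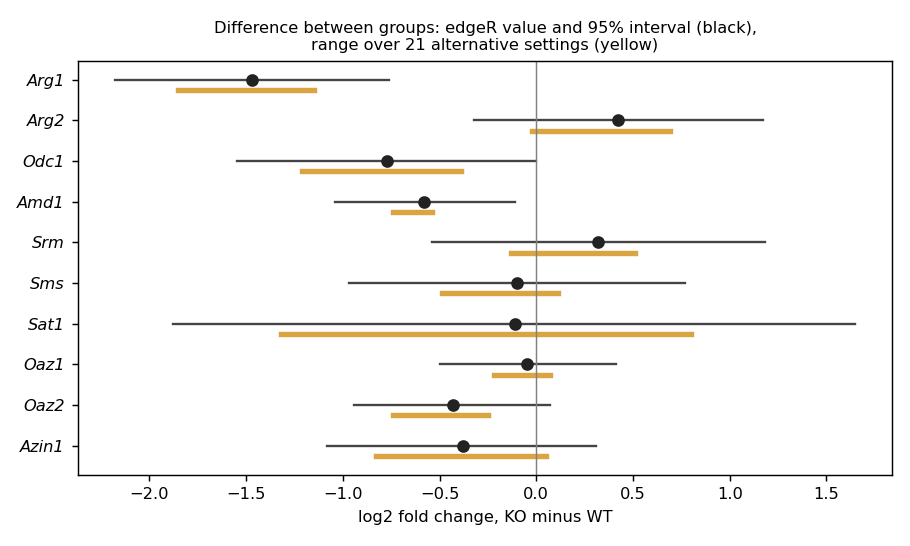
Log2 fold change of KO minus WT for the 10 genes (horizontal axis), with the edgeR value and its 95% interval in black and the range over 21 alternative settings in yellow. Arg1 lies farthest from 0 at -1.47, and the yellow ranges of Arg1, Odc1, Amd1 and Oaz2 stay below 0.

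A comparison that the choice of genes did not use is that of KO libraries by label ending, the 3 ending in bl against the 2 ending in br. Over all 19026 genes tested, edgeR called 0% in either direction, with 3339 genes at an unadjusted p under 0.05. Of all genes, limma voom called 0 and DESeq2 called 1893, 276 higher and 1617 lower. Of the 10 genes 0 were called by edgeR, limma voom or DESeq2. Azin1 was 122.6 CPM on average in bl and 214.5 in br libraries (log2 difference -0.86, SE 0.28, edgeR adjusted p = 0.211), and the bl libraries were the lower in all 3 cases. Sat1 was 76.97 in bl and 299.6 in br (-1.99, SE 0.76, adjusted p = 0.2524), where the br mean rests on the library labelled KO replicate 1. Odc1 was 54.87 and 89.40 (-0.76, SE 0.36, adjusted p = 0.3288), and Arg1 was 14.44 and 21.49 (-0.63, SE 0.41, adjusted p = 0.4586). Amd1 was 72.61 and 69.02, a log2 difference of 0.01 with a 95% interval of -0.51 to 0.53.

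Azin1 was lower in the bl libraries whichever br library was left out, but it was not called with both br libraries in. It was -0.48 without the library labelled KO replicate 1 and -1.06 without KO replicate 2. The former fit rests on KO replicate 2, the shallow library with background on silent genes, as its 1 br library. The latter rests on the library labelled KO replicate 1. In each fit the 1 br library is assumed to vary like the bl libraries, so calls of single genes are not read as results. Of all genes, 16.0% were called higher and 31.2% lower in the former and 11.2% and 12.7% in the latter. Without KO replicate 2, Odc1 was -1.16 and Sat1 was -2.83, values that compare the bl libraries with the library labelled KO replicate 1 alone. With no filter on low counts Sat1 was -1.94 (edgeR adjusted p = 0.0003148), where 1.09% of all genes were called higher and 4.41% lower. That value also rests on the library labelled KO replicate 1, at 540.24 CPM. KO replicate 2, at 59.05 CPM, lay below all bl libraries, at 63.65 to 87.62.

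Levels between genes were compared per length, as TPM means over 8 libraries. Sat1 was the highest at 141.6 TPM ± 121.6 (SD, n = 8), and Odc1 followed at 83.2 ± 39.2, Azin1 at 67.6 ± 21.1, Amd1 at 59.2 ± 22.6, Oaz1 at 50.9 ± 13.2 and Arg1 at 48.0 ± 32.5. Srm was 33.3 ± 17.1 TPM, Oaz2 15.9 ± 5.46, Arg2 10.4 ± 4.29 and Sms 5.92 ± 2.82. No neighbours in this order differed beyond their spread: the ranges of each overlapped, and the higher mean was the higher value in 5 to 7 of 8 libraries. The place of Arg1 held in neither genotype: its mean was 84.1 ± 17.9 TPM in the WT libraries (n = 3), the fourth after Azin1 at 85.4, and 26.4 ± 11.4 in the KO libraries (n = 5), the seventh after Srm at 35.5. Sat1, Odc1 and Azin1 were the highest in this order in each genotype. KO replicate 2 gave the lowest TPM for 8 of the 10 genes. On the CPM scale, which favours long transcripts, Azin1 was the highest and Arg2 the lowest.

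**Figure D4:**
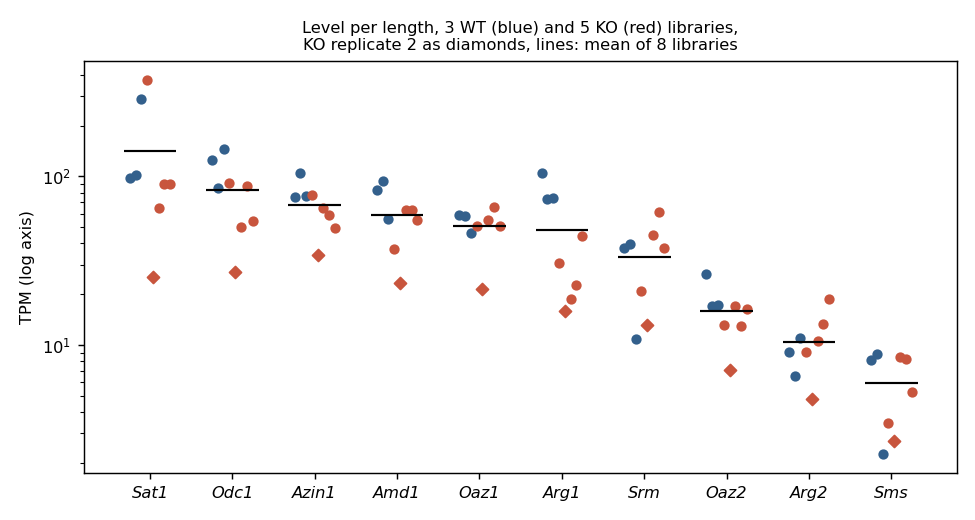
TPM of the 10 genes (vertical axis, log scale) in 3 WT (blue) and 5 KO (red) libraries, with diamonds for KO replicate 2 and lines for the mean of 8 libraries. The genes run from Sat1 at 141.6 to Sms at 5.92 TPM, with overlap between all neighbours.

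The genes with level profiles most like those of Arg1 and Odc1 were found by the root mean square difference of centred log2 CPM over the 8 libraries, among 14066 tested genes other than predicted genes and pseudogenes. For Arg1 these were Timp3, an inhibitor of metalloproteinases (0.354), Btc, which encodes the EGF receptor ligand betacellulin (0.356), Sgtb (0.364), Arid5a (0.386) and Tmc7 (0.39). Btc was 112.00, 96.51 and 73.94 CPM in WT and 25.65, 24.66, 12.88, 22.71 and 35.42 CPM in KO replicates 1 to 5, without overlap, which the choice of the nearest profile brings with it. For Odc1 the profiles were closer, and the nearest were Inpp4a, which encodes a phosphoinositide phosphatase (0.175), Csrp1 (0.193), Fam107b (0.201), Anxa11, an annexin gene (0.218), and Reps2 (0.223). Inpp4a was 98.68, 87.38 and 132.95 CPM in WT and 116.23, 65.82, 42.95, 51.46 and 45.51 CPM in KO replicates 1 to 5, with the library labelled KO replicate 1 inside the WT range, likewise by that choice.

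Of 58 other genes of the pathway in 8 lists, 47 were tested and 0 were called by edgeR in either direction, with 5 at an unadjusted p under 0.05. That is 10.6% of them, against 6.28% of all genes tested. Their median log2 fold change was 0.25 and 65.96% were positive, near the 0.16 and 61.89% of all genes tested, and the median was 0.15 without KO replicate 2 and -0.07 with the 3 libraries that stood apart left out. Arginine and ornithine supply and use had 12 of 13 tested genes positive, with a median of 0.76, 7 of 11 with a median of 0.15 without KO replicate 2, and 11 of 12 with a median of 0.74 with background counts subtracted. With WT replicate 3 and KO replicates 1 and 2 left out, 5 of 11 were positive and the median was -0.13. Ass1, which encodes the enzyme that joins citrulline and aspartate, was 13.83, 13.83 and 4.85 CPM in WT and 13.20 to 24.02 in the KO libraries. Its log2 fold change was 0.76 (edgeR adjusted p = 0.8322), and 0.40 without WT replicate 3. Oat, which encodes ornithine aminotransferase, was 0.67 (edgeR adjusted p = 0.848), and 0.29 without WT replicate 3. Among libraries ending in br they were 0.22 and 0.18.

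Aldh18a1, which encodes the enzyme that makes the precursor of ornithine and proline, was 15.45, 11.58 and 6.41 CPM in WT and 16.44, 18.58, 36.20, 35.43 and 24.64 CPM in KO replicates 1 to 5. The groups did not overlap, and the KO libraries ending in bl were the highest. Its log2 fold change was 1.24 (SE 0.38, edgeR adjusted p = 0.5804) and 0.56 among libraries ending in br. It was called higher with quality weights (1.31).

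In the breakdown and transport lists few genes were tested. Paox, which encodes the oxidase of acetylated polyamines, was 10.52, 13.16 and 7.35 CPM in WT and 9.80, 14.59, 24.57, 24.02 and 25.33 CPM in KO replicates 1 to 5 (log2 fold change 0.93, SE 0.36, edgeR adjusted p = 0.6935). The bl libraries were again the highest, and the value was 0.13 among libraries ending in br. Atp13a3, which encodes a transporter of polyamines, was 339.65, 436.06 and 362.12 CPM in WT and 330.18, 239.15, 221.40, 201.81 and 198.34 CPM in KO replicates 1 to 5 (-0.67, SE 0.24, edgeR adjusted p = 0.677). Its groups did not overlap, and the library labelled KO replicate 1 was just below the lowest WT library. The transport list had 4 of 5 positive and a median of 0.83, and 3 of 4 with a median of 0.46 without KO replicate 2. The tested genes of oxidation were Smox and Paox. Atp13a2, which encodes the lysosomal exporter of polyamines, was 0.10, and -0.30 without WT replicate 2, and Slc18b1, which encodes a vesicular one, was 1.09.

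In the remaining lists 0 genes were called by edgeR. Transporters of cationic amino acids had 5 of 7 positive and a median of 0.30, which was 0.05 without KO replicate 2 and -0.19 with the 3 libraries left out, with Slc7a1 at 0.01, Slc7a6 at -0.21 and Slc3a2 at -0.06. The hypusine pathway, which uses spermidine to modify the translation factor eIF5A, had 1 of 4 positive and a median of -0.04, with Eif5a at -0.08, Dhps at -0.01 and Dohh at 0.33. The methionine cycle had 4 of 8 positive and a median of 0.00, with Mat2a, which encodes the synthase of S-adenosylmethionine, at -0.42, Mat2b at -0.22 and Adi1 at 0.25. Adi1 was -0.07 without WT replicate 3 and -0.51 among libraries ending in br, and Mat2a was -0.17 without WT replicate 1. Azin2 was the tested gene of the other antizyme and decarboxylase family genes, at 0.60, and at 0.10 without WT replicate 2.

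Myc, a known activator of Odc1 transcription, and its relatives had 2 of 7 positive and a median of -0.25. Myc itself was -0.48 (edgeR adjusted p = 0.8979), Max -0.46 and Mxd1 -0.62. Mxd1 was 0.06 without WT replicate 3, -1.59 without the library labelled KO replicate 1 and 0.21 among libraries ending in br. With DESeq2 1 gene of the pathway was called, Atp13a4 at 1.31 (DESeq2 adjusted p = 0.04098), where 0.226% of all genes were called higher and 0.0930% lower. With quality weights 5 were called, Aldh18a1, Paox (1.01) and Atp13a4 (1.17) higher and Atp13a3 (-0.88) and Mtap (-0.74) lower, where 3.39% of all genes were called higher and 3.07% lower. With the 3 libraries that stood apart left out, 8 were called, these 5 and Mycl higher (0.60) and Mat2a (-0.58) and Myc (-0.83) lower, where 5.25% of all genes were called higher and 5.32% lower.

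**Figure D5:**
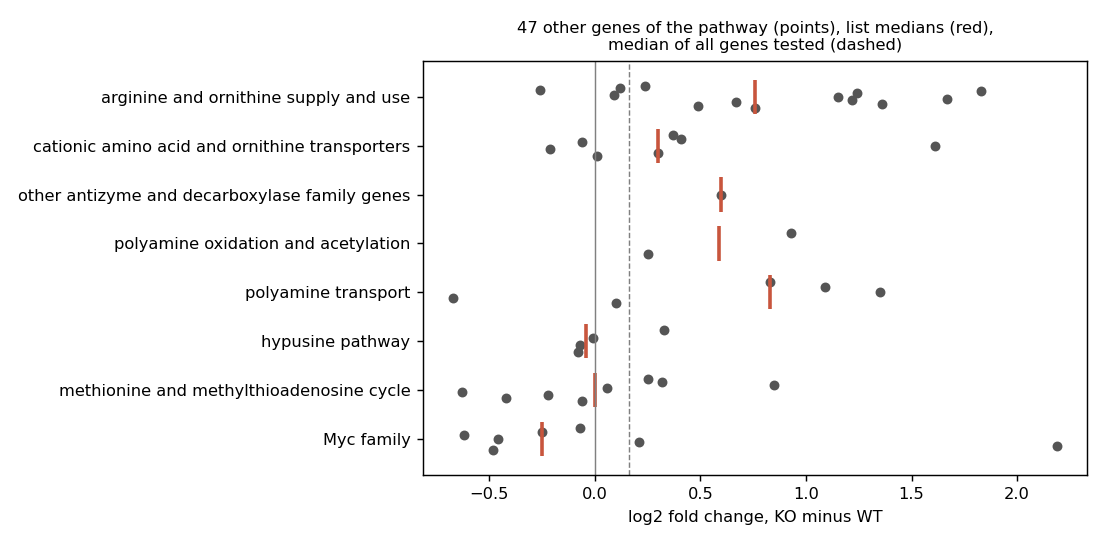
Log2 fold change of KO minus WT (horizontal axis) for the 47 tested genes of the 8 other pathway lists, each a point, with list medians in red and the median of all genes tested, 0.16, dashed. The arginine and ornithine list has 12 of 13 points above 0 and the Myc family 2 of 7.

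Markers of other cell types that hold these transcripts were set beside Arg1. Of 9 macrophage markers, 3 were at 0 in some library, and their summed level was 30.49 to 99.50 CPM in WT and 21.16 to 118.9 in KO, with overlap. The 6 markers of alternatively activated macrophages, a known source of Arg1, summed to 3.526 to 6.409 CPM in WT and 3.169 to 4.91 in KO except 40.29 in KO replicate 2, and 2 were at 0 in some library. Hepatocyte markers summed to 0.1679 to 3.283 CPM in WT and 0 to 18.24 in KO, the highest in KO replicate 2, and all 4 were at 0 in some library.

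Other lists differed between the groups in part. The 5 Langerhans cell markers were negative in 5 of 5 cases, at 658.1 to 893.8 CPM in WT and 288.8 to 884.4 in KO, where the library labelled KO replicate 1 was within the WT range. The 7 cycling cell markers were positive in 7 of 7 cases with 0 called by edgeR, where 61.89% of all genes tested were positive. Their sum did not overlap, at 128.7 to 224.6 CPM in WT and 261.5 to 607.0 in KO, with Mki67 as its largest part. Mki67 and Top2a had no overlap, while Pcna, Cdk1, Ccnb1, Mcm2 and Mcm5 overlapped. Pcna was 52.90, 49.15 and 15.71 CPM in WT and 37.88 to 43.01 in KO. Basal keratinocyte markers summed to 4081 to 12580 CPM in WT and 5546 to 13560 in KO, and granular markers to 3170 to 6082 and 1225 to 10280. Markers of hair shaft and inner root sheath were 31.34 to 40.41 CPM in WT and 24.01 to 72.89 in KO except 712.4 in KO replicate 5, where Odc1 was 48.44 CPM. The part of cell composition in the values of the 10 genes was not tested.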

How the data were processed

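RNA-seq of 3 WT and 5 KO libraries was analysed. The authors deposited whole-number read counts per gene without normalization. The submitters' processing notes name STAR 2.5.2b, Trimmomatic 0.36 and Subread 1.5.2 with its featureCounts, and the builds GRCh38 and GRCm38. Per the file headers, the genes are mouse Ensembl genes with exon lengths. Of 49315 genes, 49056 matched GENCODE M21, 91.4% with the same start and end, and 48970 were named. Strandedness and the treatment of reads with several matches are stated in none of the sources used here.

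The test was that of edgeR 4.0.16 (R 4.3.3, robust quasi-likelihood, TMM, filterByExpr, genotype as the factor), with Benjamini-Hochberg adjustment over all genes tested and a threshold of 0.05. CPM uses TMM factors, and TPM the exon lengths of the files. Groups came from the genotype labels, and replicate numbers, given in order of deposition, pair no libraries. Every pair of libraries differed beyond sampling noise (lowest chi-square per gene 13.74). The pathway genes named are the up to 3 with the highest TPM per list and any called, together with the 5 genes nearest in profile to Arg1 and to Odc1. The 10 genes and all lists were chosen with earlier results of these data known. Atp13a4, Mtap, Mycl and the single markers of macrophages, cycling cells, hair follicle and granular keratinocytes were named after their values were seen. Alternatives were other scalings and filters, DESeq2 1.42.0, limma 3.58.1 voom with and without quality weights, the label ending, left-out libraries, and subtraction of background counts per kb. The script was tested on simulated data with 200 changed genes. For KO against WT, edgeR recovered 0% of changes of 2-fold and 41.5% of changes of 4-fold. By label ending it recovered 0% and 2%, so a count of 0 called does not show that genes were unchanged. DESeq2 recovered 25 genes changed 2-fold in KO against WT, with 58 false calls. Intervals cover the spread between libraries.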

Additional observations from a re-analysis of the deposited data

Results flagged for a closer look

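In 42 sets of 5 KO libraries, the gap of the most distant library was compared with the range of the group on the log2 CPM scale (Dixon's ratio, critical value 0.71), and chance flags about 1 in 20 groups. The sets cover the 10 genes, the other named genes and their relatives, so that several share the same distant library.

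Among the 10 genes, Sat1 had a ratio of 0.822, with the library labelled KO replicate 1 at 540.24 CPM and the other KO libraries at 59.05 to 87.62. Amd1 had a ratio of 0.724, with KO replicate 3 at 78.97 CPM and the others at 67.99 to 70.86, a small gap in a tight group. The library labelled KO replicate 1 was also the distant one for Smox (ratio 0.929, 440 CPM against 38.73 to 46.04), for Dhps (0.767, 16.29 against 11.82 to 12.74), and for genes near Odc1 in profile, Csrp1 (0.823, 265.55 against 127.74 to 145.36), Fam107b (0.794, 135.76 against 57.83 to 68.95) and Reps2 (0.756, 29.7 against 10.86 to 13.89). KO replicate 2, the shallowest library, was the low one for Mat2b (0.904, 22.92 against 34.89 to 36.48) and Atp13a2 (0.74, 33.34 against 45.36 to 50.52).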

How the results depend on the processing

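Arg1, Odc1, Amd1 and Oaz2 kept a negative log2 fold change in all 21 settings, Arg1 from -1.85 to -1.15, while Sat1, at -0.11, was 0.66 without WT replicate 3, 0.04 to 0.09 without any of KO replicates 2 to 5, and -1.32 without the library labelled KO replicate 1. Counts of calls moved most, and the causes were not tested. Genes called in KO against WT, 1 in all, were 0 with DESeq2 size factors in edgeR, with upper quartile scaling, with a filter at 1 CPM, in limma voom and among libraries ending in br, 9 with no filter, 137 in DESeq2, 1243 with quality weights, 21 for KO libraries ending in bl, 1883 with WT replicate 3 and KO replicates 1 and 2 left out, and 0 to 1 with a library left out. Of the 10 genes, 0 were called, and 1 in DESeq2, 4 with quality weights and 4 with the 3 libraries left out, counts that support nothing since this contrast chose the genes. Of the other pathway genes, 0 were called, and 1, 5 and 8 in the same settings. Between KO libraries by ending, 0 genes were called, 2383 with no filter, 1893 in DESeq2, 1 at an adjusted p under 0.1 and 0 to 12160 with a library left out, and of the 10 genes 0, 1 with no filter and 0 to 3 with a library left out. The median of all genes was 0.16 with TMM, 0.12 with DESeq2 size factors, 0.12 with upper quartile scaling and 0.20 with totals alone, and 0.02 without KO replicate 2. No paired analysis was possible because the labels give no replicate numbers shared between the groups. KO replicate 2, with 5313552 counts and background on silent genes, limits Sms, Arg2 and Oaz2.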
